A study of Mus musculus with 3 samples.

Results

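The genes described here are 10 that serve protein folding in the endoplasmic reticulum (ER): the chaperone genes Hspa5, Hsp90b1 and Calr, the disulfide isomerase genes Pdia4 and Pdia6, the transcription factor gene Xbp1, and Dnajb9, Sdf2l1, Creld2 and Herpud1, which are known targets of XBP1 or of the ER stress response. They were chosen by name, as the rows of the tables that carry these symbols, and all 10 of 10 were found among 41799 genes. Liver RNA of C57BL/6 males, 14 weeks old, was sequenced in 3 libraries, 1 per group. The protocol text names the strain as C57BL/6J. The HFD+DfCS-Ib library came from mice on a high-fat diet that received DfCS-Ib by oral gavage in water at 40 mg/kg, a code-named preparation that the series describes as a sulfated oligosaccharide. The HFD library came from mice on the high-fat diet without it, and the chow library from mice on regular chow. Groups of 8 mice are given in the labels, which do not say how many animals gave RNA to a library, how long the diet or the gavage lasted, what the diet held, or whether the HFD and chow mice were gavaged with water. Food was freely available.

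Secreted and membrane proteins fold in the lumen of the ER, where the Hsp70-type chaperone BiP, endoplasmin, the lectin calreticulin and the disulfide isomerases bind them. When unfolded protein accumulates, the sensor IRE1 removes a short intron from Xbp1 mRNA so that the active factor XBP1 is made, ATF6 is cleaved to an active factor, and PERK slows translation while ATF4 is made. XBP1 and ATF6 act with the CCAAT-binding factor NF-Y on promoters of chaperone genes. Hepatocytes carry a dense ER because they make most plasma proteins. In mouse liver XBP1 is also known to be needed for normal lipid synthesis.

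The promoters of several of these genes hold the sequences through which the ER stress response is known to act, and they are shown here as a feature by which the members differ. Each of the 10 symbols had 1 window in the RefSeq promoter table of GRCm38.p6, from 250 bases before the transcription start site to 50 after it, and for 8 of them the start site was that of the gene model in the deposited files. For Pdia6 it lay 6 bases away and for Herpud1 286 bases away. The ER stress element (ERSE), searched as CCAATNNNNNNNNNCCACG on both strands, occurred in the windows of 5 of the 10 genes, Hspa5, Hsp90b1, Calr, Pdia6 and Creld2, against 0.119% of all 32851 windows in the table. ERSE-II, searched as ATTGGNCCACG, occurred in Herpud1 alone among the members and in 0.0365% of all windows. Its first letters are CCAAT read on the other strand. The core of the XBP1-binding element (UPRE), TGACGTG, occurred in Hspa5 alone among the members and in 2.01% of all windows, and overlapped no ERSE. The matches are listed here in the direction of the motif, with 8 bases on either side and the fixed letters in capitals.
Hspa5 ERSE, chr2:34772017-34772051, plus strand: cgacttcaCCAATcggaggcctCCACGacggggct
Hsp90b1 ERSE, chr10:86705630-86705664, minus strand: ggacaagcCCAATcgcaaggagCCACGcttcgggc
Hsp90b1 ERSE, chr10:86705525-86705559, plus strand: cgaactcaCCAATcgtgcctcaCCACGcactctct
Calr ERSE, chr8:84847067-84847101, plus strand: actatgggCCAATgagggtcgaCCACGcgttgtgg
Pdia6 ERSE, chr12:17266483-17266517, plus strand: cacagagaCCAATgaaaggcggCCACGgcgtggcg
Creld2 ERSE, chr15:88819512-88819546, minus strand: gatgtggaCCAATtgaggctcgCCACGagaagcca
Herpud1 ERSE-II, chr8:94386369-94386395, plus strand: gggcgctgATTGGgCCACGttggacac
Hsp90b1 held 2 ERSE copies on opposite strands. The spacer of 9 bases, which the motif leaves free, differed from gene to gene. In 3 genes with different outcomes below, the whole windows read as follows on the strand of the gene, with ERSE, ERSE-II and UPRE core matches in capitals.
Hspa5 promoter, chr2:34771840-34772139, plus strand: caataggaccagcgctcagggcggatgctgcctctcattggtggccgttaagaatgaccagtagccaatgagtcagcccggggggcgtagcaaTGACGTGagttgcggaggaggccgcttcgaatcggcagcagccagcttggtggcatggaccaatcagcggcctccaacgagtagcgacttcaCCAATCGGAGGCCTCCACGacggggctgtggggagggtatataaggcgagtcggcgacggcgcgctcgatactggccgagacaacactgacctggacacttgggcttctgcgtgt
Pdia6 promoter, chr12:17266339-17266638, plus strand: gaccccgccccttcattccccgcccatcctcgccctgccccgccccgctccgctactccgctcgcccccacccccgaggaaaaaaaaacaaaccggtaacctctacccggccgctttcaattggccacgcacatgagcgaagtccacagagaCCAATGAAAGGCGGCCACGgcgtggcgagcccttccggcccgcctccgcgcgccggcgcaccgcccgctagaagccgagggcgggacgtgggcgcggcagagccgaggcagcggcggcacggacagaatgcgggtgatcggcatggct
Herpud1 promoter, chr8:94386179-94386478, plus strand: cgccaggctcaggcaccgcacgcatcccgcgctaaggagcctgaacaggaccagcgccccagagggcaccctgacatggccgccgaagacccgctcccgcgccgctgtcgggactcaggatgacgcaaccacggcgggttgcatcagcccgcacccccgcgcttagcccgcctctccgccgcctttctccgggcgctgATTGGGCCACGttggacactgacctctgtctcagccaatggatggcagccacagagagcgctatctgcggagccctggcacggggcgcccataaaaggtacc
None of the 3 motifs was found in the windows of Pdia4, Xbp1, Dnajb9 and Sdf2l1, which says only that these letters are not in those 300 bases. A match is a description of the sequence and was not tested for binding. The members were chosen as known ER folding and ER stress genes. Their share beside that of all windows is therefore no test of enrichment.

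**Figure D1:**
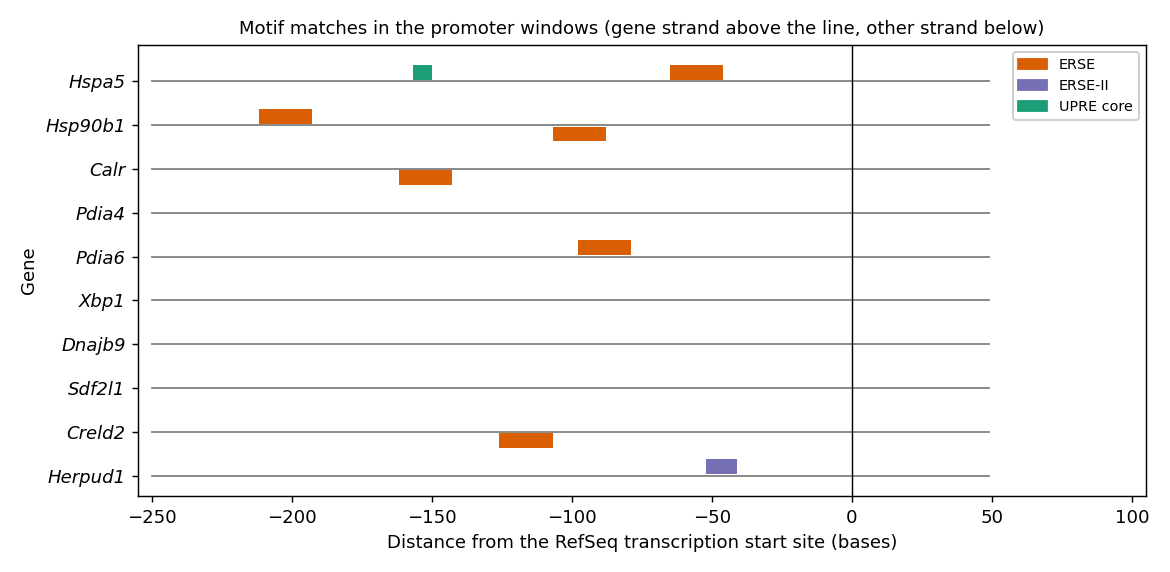
Positions of motif matches in the RefSeq promoter windows of the 10 genes, as distance in bases from the transcription start site (0), with matches on the strand of the gene above each line and on the other strand below it. ERSE matches lie in 5 windows, with 2 matches in that of Hsp90b1, and all matches lie before the start site.

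All 10 genes were well measured. Counts ran from 257 for Sdf2l1 in the chow library to 21474 for Hspa5 in the HFD library, and each gene passed the filter of a mean of 1 CPM (counts scaled to library size with TMM factors) that 13153 of the 41799 genes passed. Per length, on the scale of the deposited RPKM (counts per kilobase of gene model, scaled to library size), the 4 genes of highest level had the same order in each library. Hspa5, the gene of the central ER chaperone BiP, was highest with 559.5 RPKM in the HFD+DfCS-Ib library, 668 in the HFD library and 508 in the chow library. Hsp90b1, which encodes endoplasmin, followed with 458 RPKM in the HFD+DfCS-Ib library, 429 in the HFD library and 416 in the chow library. Calr, the calreticulin gene, came next with 299 RPKM in the HFD+DfCS-Ib library, 421 in the HFD library and 299.8 in the chow library. Herpud1 followed in each, with 237 RPKM in the HFD+DfCS-Ib library, 168 in the HFD library and 221 in the chow library. Below it lay the isomerase genes, then Xbp1, then Creld2, Dnajb9 and Sdf2l1, the last of these at 32.1 RPKM in the HFD+DfCS-Ib library, 40.9 in the HFD library and 21.03 in the chow library. The 95% exact Poisson intervals of neighbours in this order overlapped for Hsp90b1 and Calr and for Sdf2l1 and Dnajb9 in the HFD library, and for Pdia4 and Pdia6 and for Dnajb9 and Creld2 in the chow library. With 1 library per group there is no spread between animals to set a difference against, so no p-value was computed, and every interval in this account covers counting error only. In bulk tissue, less RNA per cell and fewer cells of a type cannot be told apart.

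**Figure D2:**
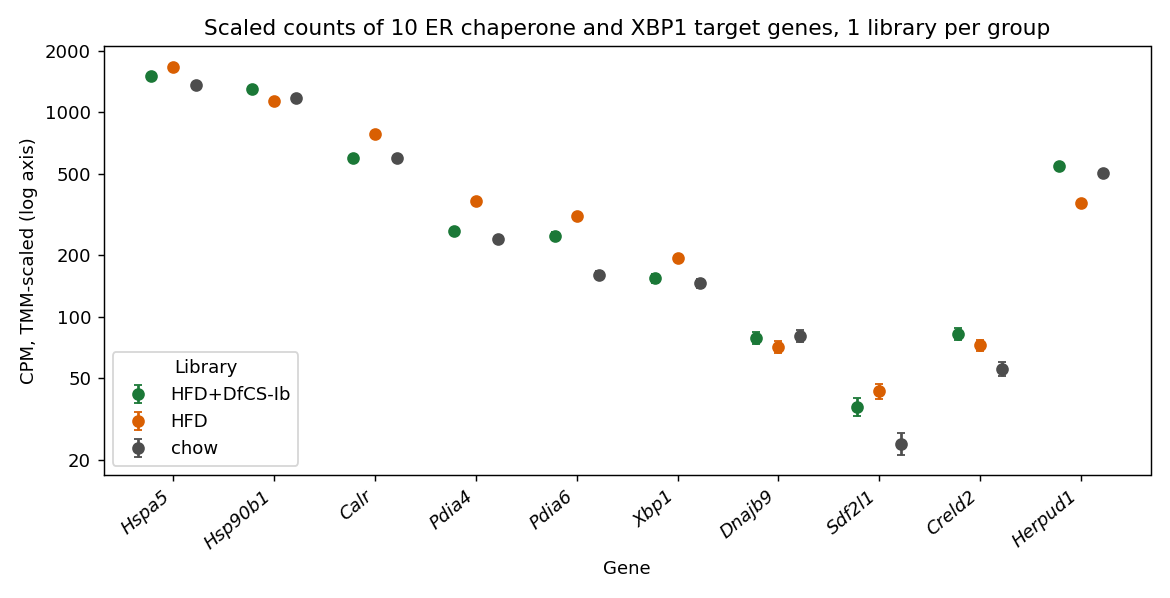
Scaled counts (CPM on a log axis) of the 10 genes in the HFD+DfCS-Ib, HFD and chow libraries, 1 point per library, with 95% exact Poisson intervals that cover counting error only. Of the genes, 6 are at their highest in the HFD library, as are 39.8% of all genes tested. Hsp90b1, Dnajb9 and Herpud1 are at their lowest there, Herpud1 at 359 CPM.

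The HFD and chow libraries were compared for the diet. Of the 10 genes, 7 were higher in the HFD library and 3 lower (8 and 2 without TMM factors and with RPKM). Of the 13153 genes tested, 6832 were higher and 6321 lower. The amounts were modest: the median log2 ratio of CPM plus 1 was 0.38, against 0.02 over the genes tested. The disulfide isomerase gene Pdia6 and the BiP-associated Sdf2l1 differed most, Xbp1 itself by less, and Herpud1 went the other way. Calls were made on CPM plus 1, which lowers the ratio of genes with few counts, while the ratios of single genes have no such addition. By a rule of at least 2-fold, 0 of the 10 were higher and 0 were lower, where 3.47% of all genes tested were higher and 2.27% lower. At 1.5-fold, 3 of the 10 were higher, namely Pdia4, Pdia6 and Sdf2l1, and 0 were lower, against 10.4% and 7.72% of all genes.

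Positions are those of the whole gene model in mm10, exons and introns included. Among the chaperones, Hspa5 (chr2:34772090-34776529, plus strand) had 1669 CPM in the HFD library and 1361 CPM in the chow library, 1.23-fold higher (95% exact Clopper-Pearson interval 1.20 to 1.25, from the split of the counts between the libraries). Calr (chr8:84842088-84846931, minus strand), whose product binds calcium and helps glycoproteins fold, had 780.2 CPM in the HFD library and 597 CPM in the chow library, 1.31-fold higher (1.27 to 1.35). Hsp90b1 (chr10:86690841-86705444, minus strand) had 1130 CPM in the HFD library and 1177 CPM in the chow library, a ratio of 0.960 (0.937 to 0.983) that lay above 1 without TMM factors and with the deposited RPKM (log2 ratio up to 0.04).

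The isomerase genes, whose products form and rearrange disulfide bonds, lay farther apart. Pdia6 (chr12:17266595-17284770, plus strand) had 310.4 CPM in the HFD library and 160.1 CPM in the chow library, or 1.94-fold (1.83 to 2.05), a log2 ratio above those of 96.1% of all genes tested. Pdia4 (chr6:47796141-47813512, minus strand) had 368 CPM in the HFD library and 239 CPM in the chow library, or 1.54-fold (1.46 to 1.61), above 90.6% of genes. Both are of moderate level, and the chaperones above them in level differed less. Gene models that share bases with these genes were of little weight: Mir704, inside Pdia4 on the same strand, had 84 counts in the HFD library and 48 in the chow library, and Atp6v1c2, which meets the end of Pdia6 on the opposite strand, had 3 in each library.

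Xbp1 (chr11:5520641-5525993, plus strand) had 193 CPM in the HFD library and 145.7 CPM in the chow library, 1.32-fold higher (1.24 to 1.41). The counts are per gene, so the spliced form that IRE1 makes and the unspliced form are summed and the activity of the factor is not measured. Its known targets lay on both sides of 1. Sdf2l1 (chr16:17130138-17132383, minus strand), a luminal protein found with BiP, had 43.3 CPM in the HFD library and 23.9 CPM in the chow library, 1.81-fold (1.56 to 2.11). Creld2 (chr15:88819646-88826681, plus strand), which encodes a stress-inducible ER protein with EGF-like repeats, had 72.4 CPM in the HFD library and 55.5 CPM in the chow library, 1.30-fold (1.18 to 1.45). Dnajb9 (chr12:44205897-44210068, minus strand), a J-domain partner of BiP that restrains IRE1, had 71.3 CPM in the HFD library and 80.5 CPM in the chow library, 1.13-fold lower (1.03 to 1.24). Herpud1 (chr8:94386143-94395366, plus strand), an ER membrane protein that organises the degradation of misfolded proteins, had 359 CPM in the HFD library and 506 CPM in the chow library, 1.41-fold lower (1.36 to 1.47), below all but 10.5% of the genes tested. The counting intervals lay above 1 for 7 of the 10 genes and below 1 for 3, against 23.3% and 22.2% of all genes, but the members have more reads than most genes and therefore narrower intervals. Without TMM factors the log2 ratio of Dnajb9 was -0.07, against -0.17 with them, and its interval was not computed at that scaling.

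**Figure D3:**
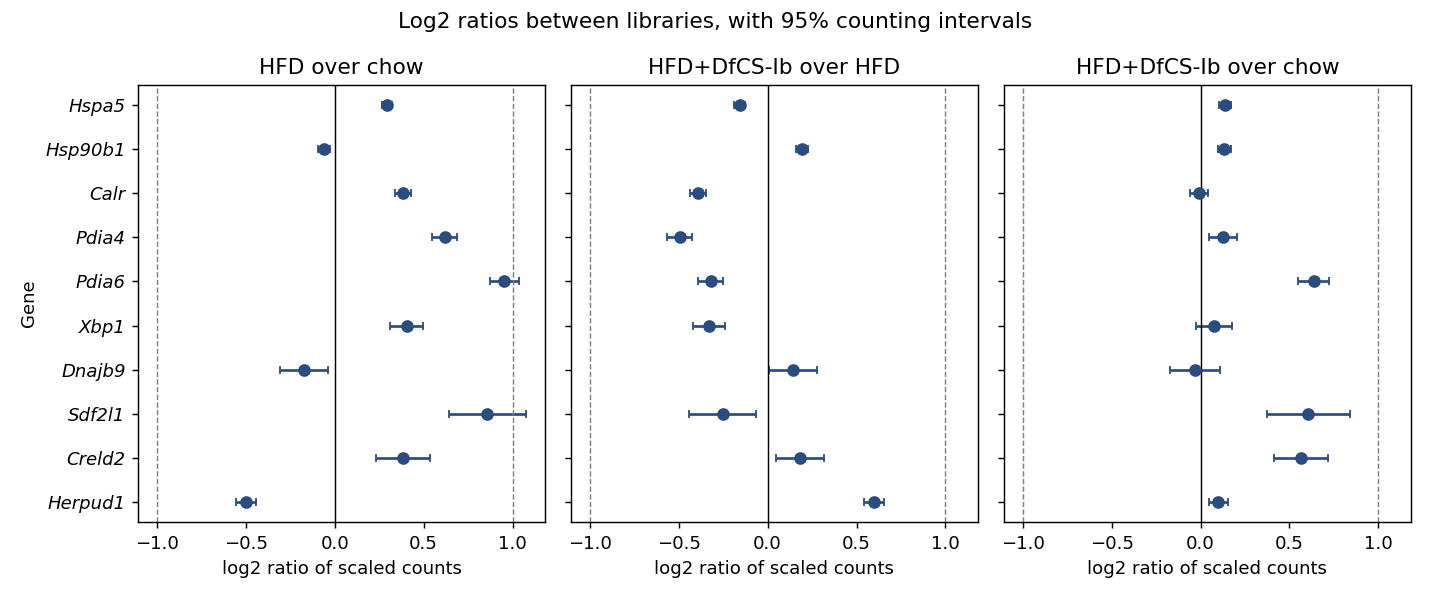
Log2 ratios of scaled counts between each pair of libraries for the 10 genes, with 95% exact intervals from the binomial split of the counts. Dashed lines mark 2-fold in either direction, and no point lies beyond them. Pdia6 and Sdf2l1 stand farthest above 0 in the left panel, and Herpud1 lies below 0 there and highest in the middle panel.

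The HFD+DfCS-Ib and HFD libraries were compared for the treatment on the same diet. Of the 10 genes, 6 were lower in the HFD+DfCS-Ib library, among them Hspa5, Calr, both isomerase genes and Xbp1, and 4 were higher, with Herpud1 by the most. Of the 13153 genes tested, 6771 were lower and 6382 higher, so the members' split is near that of all genes. The median log2 ratio of CPM plus 1 was -0.20, against -0.01 over all genes tested. At 2-fold, 0 of the 10 were higher and 0 lower, where 2.46% and 2.02% of all genes were. At 1.5-fold, 1 was higher, Herpud1, and 0 were lower, against 7.62% and 7.16% of all genes. The HFD library stands in both this comparison and the one with chow, so a gene that was high in that library alone has ratios of opposite sign in them by construction.

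Pdia4 had 261 CPM in the HFD+DfCS-Ib library and 368 CPM in the HFD library, 1.41-fold lower (1.34 to 1.48), and Calr had 594 CPM in the HFD+DfCS-Ib library and 780.2 CPM in the HFD library, 1.31-fold lower (1.27 to 1.36). These were the members with the lowest ratios, and 10.1% of all genes tested lay below Pdia4. Pdia6 had 249 CPM in the HFD+DfCS-Ib library and 310.4 CPM in the HFD library, 1.25-fold lower (1.19 to 1.31). Xbp1 had 153.7 CPM in the HFD+DfCS-Ib library and 193 CPM in the HFD library, 1.26-fold lower (1.18 to 1.34). Hspa5 had 1497 CPM in the HFD+DfCS-Ib library and 1669 CPM in the HFD library, 1.12-fold lower (1.09 to 1.14), and Sdf2l1 had 36.4 CPM in the HFD+DfCS-Ib library and 43.3 CPM in the HFD library, 1.19-fold lower (1.04 to 1.36).

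On the higher side, Herpud1 had 543 CPM in the HFD+DfCS-Ib library and 359 CPM in the HFD library, 1.51-fold (1.45 to 1.57), a ratio above those of 92.7% of genes. Hsp90b1 had 1293 CPM in the HFD+DfCS-Ib library and 1130 CPM in the HFD library, 1.14-fold (1.12 to 1.17). Creld2 had 82.02 CPM in the HFD+DfCS-Ib library and 72.4 CPM in the HFD library, 1.13-fold (1.03 to 1.24), and Dnajb9 had 78.8 CPM in the HFD+DfCS-Ib library and 71.3 CPM in the HFD library, 1.10-fold (1.004 to 1.21). The genes of BiP and endoplasmin thus lay in opposite directions here, under each of the scalings tried. Intervals lay above 1 for 4 genes and below 1 for 6, against 20.5% and 21.1% of all genes. The members have more reads than most genes and therefore narrower intervals. These intervals rest on the TMM factors. Without them the log2 ratios of Creld2 and Dnajb9 were 0.08 and 0.04, against 0.18 and 0.14 with them. Whether their intervals then hold 1 was not computed. Markers of macrophages and Kupffer cells moved with this comparison: all 7 were higher in the HFD+DfCS-Ib library, their summed level was 604 CPM there, 339 CPM in the HFD library and 276 CPM in the chow library, and the most abundant, Clec4f, had 218 CPM in the HFD+DfCS-Ib library and 127 CPM in the HFD library. Their part in the values of the 10 genes was not tested.

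The HFD+DfCS-Ib and chow libraries differ in diet and treatment together. The members lay close to each other in these libraries, apart from Pdia6, Sdf2l1 and Creld2, which were higher in the HFD+DfCS-Ib library. The median log2 ratio was 0.13, against 0.00 over all genes tested. Pdia6 had 249 CPM in the HFD+DfCS-Ib library and 160.1 CPM in the chow library, 1.55-fold (1.46 to 1.65). Sdf2l1 had 36.4 CPM in the HFD+DfCS-Ib library and 23.9 CPM in the chow library, 1.52-fold (1.297 to 1.79), and Creld2 had 82.02 CPM in the HFD+DfCS-Ib library and 55.5 CPM in the chow library, 1.48-fold (1.33 to 1.64). At 2-fold, 0 were higher and 0 lower, where 1.62% and 0.433% of all genes were, and at 1.5-fold 2 were higher and 0 lower, against 5.69% and 3.06%. Hspa5 had a ratio of 1.10 (1.07 to 1.12), Hsp90b1 1.10 (1.07 to 1.12), Pdia4 1.09 (1.03 to 1.15) and Herpud1 1.07 (1.03 to 1.11). The intervals of Calr (0.961 to 1.03), Xbp1 (0.984 to 1.13) and Dnajb9 (0.889 to 1.08) held 1, so a difference in these genes was not detectable at this depth. Intervals lay above 1 for 7 of the 10 genes and below 1 for 0, against 16.0% and 14.1% of all genes. Here too the members have more reads than most genes and therefore narrower intervals.

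Seen across the libraries, 3 members (Hsp90b1, Creld2 and Herpud1) were at their highest in the HFD+DfCS-Ib library, 6 in the HFD library and 1 (Dnajb9) in the chow library. Of all genes tested, 28.0% were highest in the HFD+DfCS-Ib library, 39.8% in the HFD library and 32.2% in the chow library. The make-up of the group can also be read within a library, which needs no scaling between libraries. Of the summed counts of the 10 genes, Hspa5 held 31.3% (30.9 to 31.7) in the HFD+DfCS-Ib library, 33.4% (33.03 to 33.8) in the HFD library and 31.3% (30.9 to 31.7) in the chow library. Hsp90b1 held 27.01% (26.6 to 27.4) in the HFD+DfCS-Ib library, 22.6% (22.3 to 22.95) in the HFD library and 27.1% (26.7 to 27.5) in the chow library, so its share was lowest in the HFD library. Herpud1 held 11.3% (11.1 to 11.6) in the HFD+DfCS-Ib library, 7.18% (6.98 to 7.38) in the HFD library and 11.6% (11.4 to 11.9) in the chow library, and was likewise lowest there. The isomerase gene Pdia6 held 5.20% (5.01 to 5.39) in the HFD+DfCS-Ib library, 6.21% (6.03 to 6.40) in the HFD library and 3.68% (3.51 to 3.86) in the chow library. The group as a whole took 0.468% (0.464 to 0.472) of all counts in the HFD+DfCS-Ib library, 0.524% (0.520 to 0.528) in the HFD library and 0.424% (0.420 to 0.428) in the chow library. Unlike the shares within the group, these are set against total counts. Comparing them between libraries is therefore scaling without TMM factors.

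**Figure D4:**
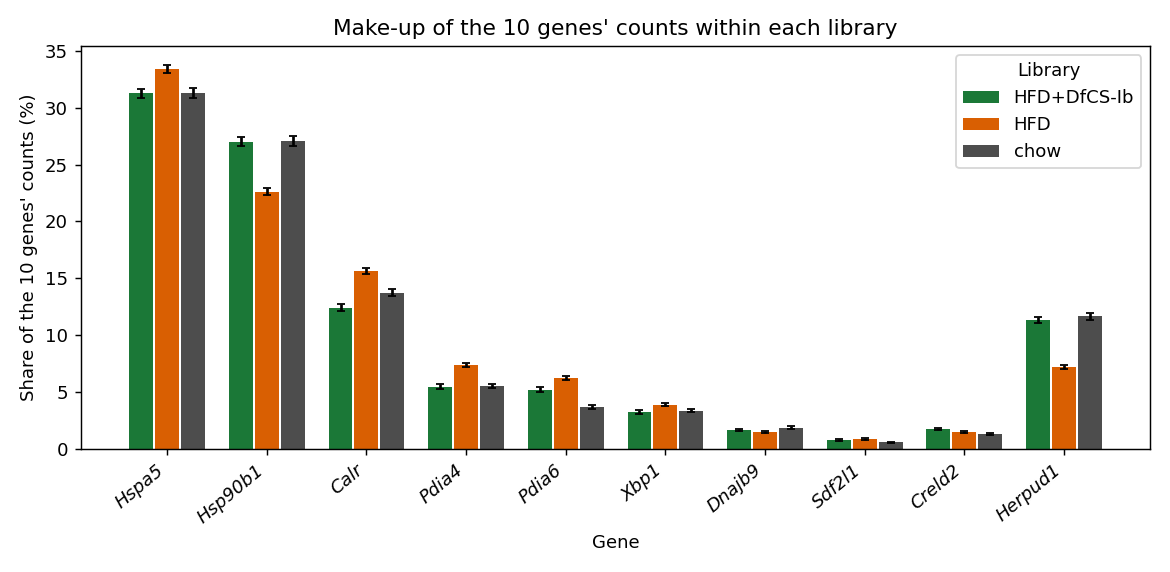
Share of each gene in the summed counts of the 10 genes (percent), within the HFD+DfCS-Ib, HFD and chow libraries, with 95% exact binomial intervals. The shares of Hsp90b1, Dnajb9 and Herpud1 are lowest in the HFD library, at 22.6%, 1.43% and 7.18%. Those of Hspa5, Calr, Pdia4, Pdia6, Xbp1 and Sdf2l1 are highest there. The interval of Sdf2l1 in the HFD library overlaps that in the HFD+DfCS-Ib library.

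The 5 genes that hold an ERSE match had HFD-to-chow ratios between 0.960, for Hsp90b1, and 1.94, for Pdia6. The other 5 lay between 0.709, for Herpud1 with its ERSE-II match, and 1.81, for Sdf2l1, which held none of the motifs searched. The ranges overlapped, and no test was made. The windows of Hspa5, Pdia6 and Herpud1 printed above belong to genes with ratios of 1.23, 1.94 and 0.709.

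Other genes of the ER folding pathway were read from lists of known members. Over the 13153 genes tested, 6832 were higher and 6321 lower in HFD than in chow, with intervals above 1 for 23.3% and below 1 for 22.2%. Between HFD+DfCS-Ib and HFD, 6382 were higher and 6771 lower. The counts of higher and lower genes in this and the following lists are to be read beside these. Counts by interval also depend on the number of reads per gene. Of 19 further ER chaperones and folding enzymes, all tested, 16 were higher in the HFD library than in the chow library and 3 lower (17 and 2 without TMM factors), with intervals above 1 for 15 and below 1 for 1, 0 past 2-fold on CPM plus 1 and a median log2 ratio of 0.42. Manf, a secreted stress-inducible factor, had 196.5 CPM in the HFD library and 102.5 CPM in the chow library, 1.92-fold (1.79 to 2.06), and Ero1lb, an oxidase that recharges the disulfide isomerases, 1.86-fold (1.68 to 2.06). Between the HFD+DfCS-Ib and HFD libraries 15 of the 19 were lower and 4 higher (18 and 1 without TMM factors), with a median of -0.20. Manf was 1.62-fold lower (1.51 to 1.73) and Txndc5, a further isomerase, 1.49-fold lower (1.40 to 1.58).

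Genes for translocation into the ER, glycosylation and vesicle transport were next. Of 29 tested, 26 were higher in the HFD library than in the chow library and 3 lower (27 and 2 without TMM factors), 2 of them by at least 2-fold on CPM plus 1, with a median of 0.32. Sec23b, a coat protein of vesicles that leave the ER, had 81.5 CPM in the HFD library and 38.9 CPM in the chow library, 2.09-fold (1.87 to 2.35). The other was Sec61b, a subunit of the translocation channel, at 2.17-fold (1.76 to 2.70). Sec61g, a further subunit of the channel, had 34 counts in the HFD library and 13 in the chow library and was past 2-fold only without the added 1, at 2.19-fold (1.125 to 4.52). Both Sec61 genes fall outside the naming rule and were singled out after their values were seen. Ddost, a subunit of the enzyme that attaches N-glycans, was 1.59-fold higher (1.43 to 1.76). Between the HFD+DfCS-Ib and HFD libraries 25 were lower and 4 higher (28 and 1 without TMM factors), 0 past 2-fold on CPM plus 1, with a median of -0.24. Sec23b was 1.77-fold lower (1.59 to 1.97) in the HFD+DfCS-Ib library and Ssr1, of the translocon-associated complex, 1.44-fold lower (1.33 to 1.56).

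Genes of ER-associated degradation and of the stress sensors lay on both sides of 0. Of 13 degradation genes tested, 8 were higher in the HFD library than in the chow library and 5 lower (median 0.19), and between the HFD+DfCS-Ib and HFD libraries 6 were higher and 7 lower (4 and 9 without TMM factors, median -0.02), with 0 past 2-fold on CPM plus 1 in both. Derl3, of the Derlin family of this pathway, had 36 counts in the HFD library and 15 in the chow library, which is 2.01-fold (1.07 to 3.95) without the added 1, and was named after its values were seen. The mannosidase-like Edem2 was 1.42-fold higher (1.23 to 1.63) in the HFD library than in the chow library and 1.25-fold lower (1.095 to 1.44) in the HFD+DfCS-Ib library than in the HFD library. Erlec1, a lectin of the same pathway, was 1.48-fold lower (1.28 to 1.71) in the HFD library than in the chow library. Syvn1, the ubiquitin ligase that works with the product of Herpud1, was 1.21-fold lower (1.11 to 1.31) in the HFD+DfCS-Ib library than in the HFD library. Ern1, the gene of IRE1, had 39.4 CPM in the HFD+DfCS-Ib library, 56.1 CPM in the HFD library and 43.6 CPM in the chow library. Creb3l3, a liver factor released from the ER membrane in the way of ATF6, had 418 CPM in the HFD+DfCS-Ib library, 269 CPM in the HFD library and 368 CPM in the chow library, 1.55-fold higher (1.48 to 1.62) in the HFD+DfCS-Ib than in the HFD library. The medians of the 6 sensor genes tested were -0.05 for HFD with chow (0.05 without TMM factors and with RPKM) and 0.27 for HFD+DfCS-Ib with HFD.

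Genes of the PERK and ATF4 arm were few and mostly of low level. Of 7 tested, 2 were higher in the HFD library than in the chow library and 5 lower, with 1 past 2-fold on CPM plus 1 in each direction and a median of -0.52, and between the HFD+DfCS-Ib and HFD libraries 4 were higher and 3 lower, 2 past 2-fold higher and 0 lower, with a median of 0.52. Atf4 was the only one of them at a mean of 20 CPM or more, with 94.4 CPM in the HFD+DfCS-Ib library, 113 CPM in the HFD library and 93.7 CPM in the chow library. Genes past 2-fold on either scale were named after their values were seen. Asns, asparagine synthetase, had 69 counts in the HFD+DfCS-Ib library, 33 in the HFD library and 128 in the chow library. Chac1, a glutathione-degrading enzyme gene, had 34 counts in the HFD+DfCS-Ib library, 58 in the HFD library and 8 in the chow library, and Trib3, a pseudokinase gene, had 130 in the HFD+DfCS-Ib library, 62 in the HFD library and 85 in the chow library. Atf3, a stress-induced factor, had 13 counts in the HFD+DfCS-Ib library, 7 in the HFD library and 14 in the chow library. Without the added 1 its ratio was 2.23 (0.826 to 6.59) for HFD+DfCS-Ib over HFD and 0.418 (0.143 to 1.11) for HFD over chow, and both intervals held 1. The list median of 0.52 for HFD+DfCS-Ib with HFD is the value of Atf3. Without TMM factors the list medians were -0.43 for HFD with chow and 0.44 for HFD+DfCS-Ib with HFD. With RPKM they were -0.35 and 0.31.

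Chaperone genes of the cytosol and mitochondria had medians of the other sign to the ER chaperone genes. All 13 tested were lower in the HFD library than in the chow library (12 without TMM factors and with RPKM), 0 past 2-fold on CPM plus 1, with a median of -0.26, and all 13 were higher in the HFD+DfCS-Ib than in the HFD library (11 without TMM factors and with RPKM), 1 past 2-fold on CPM plus 1, with a median of 0.40. Hsph1, a partner of cytosolic Hsp70, had 176.9 CPM in the HFD+DfCS-Ib library, 85.02 CPM in the HFD library and 154.4 CPM in the chow library, 2.08-fold higher (1.93 to 2.24) in the HFD+DfCS-Ib than in the HFD library and 1.82-fold lower (1.68 to 1.96) in the HFD than in the chow library. Hspa8, the constitutive cytosolic Hsp70 gene, which has many pseudogene copies and is uncertain for that reason, had 302 CPM in the HFD+DfCS-Ib library, 180.4 CPM in the HFD library and 287 CPM in the chow library. Bag3, a co-chaperone, was 1.61-fold lower (1.43 to 1.81) in the HFD than in the chow library. Hspb1, a small heat shock protein gene named after its values were seen, had 143 counts in the HFD+DfCS-Ib library and 85 in the HFD library, 2.02-fold (1.53 to 2.67) without the added 1. Herpud1, Dnajb9 and, at TMM scaling, Hsp90b1 were at their lowest in the HFD library, as were Hsph1, Hspa8 and Bag3.

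**Figure D5:**
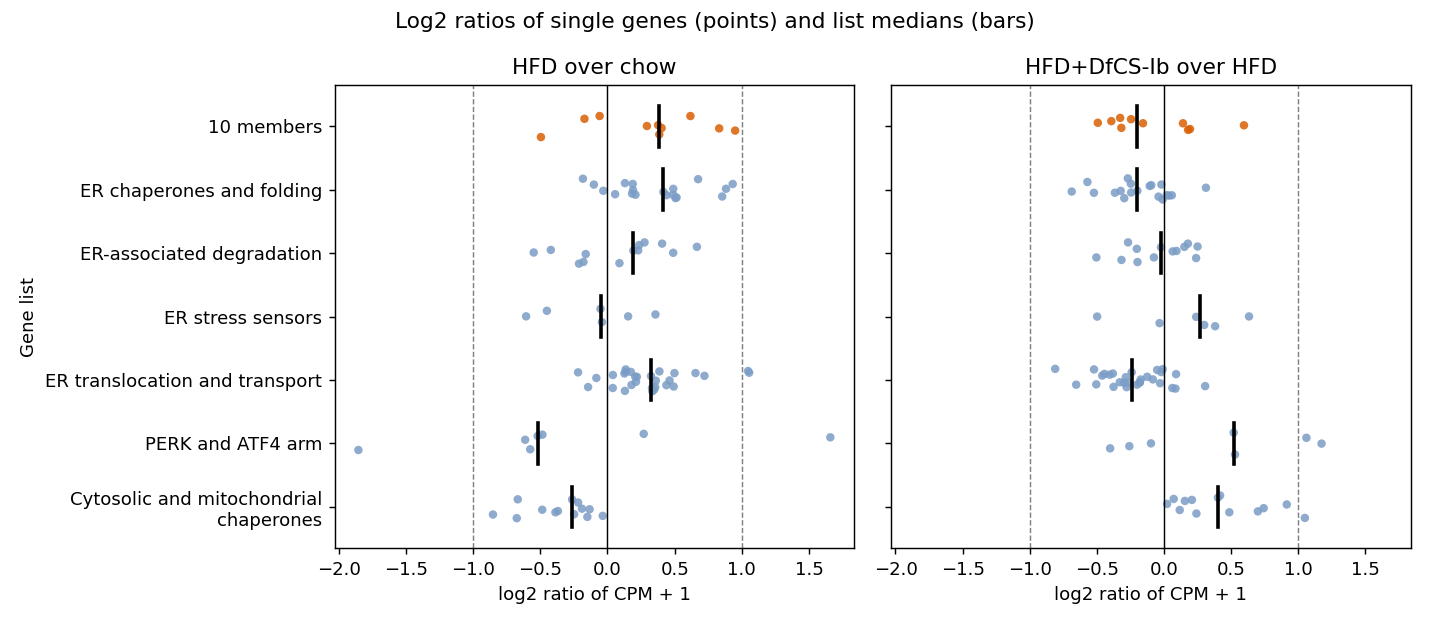
Log2 ratios of CPM plus 1 for the 10 genes (orange) and for the tested genes of 6 other lists (blue), with the median of each list as a black bar and dashed lines at 2-fold. In the left panel (HFD over chow) the medians of the ER chaperone and translocation lists lie above 0, at 0.42 and 0.32, and that of the cytosolic and mitochondrial chaperones below it, at -0.26, and in the right panel (HFD+DfCS-Ib over HFD) they lie on the other side of 0.

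Among 5345 genes in none of the lists with a mean of at least 20 CPM, the 5 whose pair of log2 ratios lay nearest to that of Hspa5 were Mettl4, C1galt1, an entry listed as 8-Mar that carries the gene ID of Marchf8, 2210016F16Rik and Prdx5, which lies at the RefSeq position of Prdx5 although its row carries the gene ID of Prdx6, at distances between 0.00831 and 0.0152 on the log2 scale. Of these 5345 genes, 216 lay within 0.1, so the pattern of Hspa5 was not confined to the listed genes in these 3 libraries.

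The libraries had 10969699 (HFD+DfCS-Ib), 12279537 (HFD) and 11028671 (chow) counts. Hepatocyte markers were abundant, with Alb at 93946 CPM in the HFD+DfCS-Ib library, 85030 CPM in the HFD library and 112771 CPM in the chow library. These markers differed between the libraries, and not in 1 direction. Tat had 5250.3 CPM in the HFD+DfCS-Ib library, 2034 CPM in the HFD library and 4871 CPM in the chow library, 2.58-fold higher (2.54 to 2.62) in HFD+DfCS-Ib than in HFD and 2.39-fold lower (2.36 to 2.43) in HFD than in chow. Hnf4a had 1186 CPM in the HFD+DfCS-Ib library, 812 CPM in the HFD library and 1319 CPM in the chow library. Ttr had 3797 CPM in the HFD+DfCS-Ib library, 5633 CPM in the HFD library and 3426 CPM in the chow library, 1.48-fold lower (1.47 to 1.502) in HFD+DfCS-Ib than in HFD and 1.64-fold higher (1.62 to 1.67) in HFD than in chow. Apoa1 had 10882 CPM in the HFD+DfCS-Ib library, 9893 CPM in the HFD library and 9229.8 CPM in the chow library. Serpina1a, one of several close copies, had 25.4 CPM in the HFD+DfCS-Ib library, 23.6 CPM in the HFD library and 23.98 CPM in the chow library. The Tat ratios were farther from 1 than those of any of the 10 members in these comparisons, and the part of hepatocyte content in the members' values was not tested. The row listed as Cps1 lies outside the RefSeq position of that gene and was not read. Markers of other cells with a large ER were low. The 7 B and plasma cell markers summed to 4.57 CPM in the HFD+DfCS-Ib library, 5.44 CPM in the HFD library and 4.37 CPM in the chow library, and Igj was the most abundant. Of 6 exocrine pancreas markers 5 were listed at 0 in every library, and Cela1 had 5.31 CPM in the HFD+DfCS-Ib library, 13.2 CPM in the HFD library and 3.35 CPM in the chow library. Cholangiocyte markers summed to 40.8 CPM in the HFD+DfCS-Ib library, 53.9 CPM in the HFD library and 41.6 CPM in the chow library, mostly from Spp1. Stellate cell markers summed to 356 CPM in the HFD+DfCS-Ib library, 242 CPM in the HFD library and 306 CPM in the chow library, mostly from Dcn. The B and plasma cell, exocrine pancreas and cholangiocyte sums were highest in the HFD library, as 6 of the members were, and their part in those values was not tested.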

How the data were processed

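Per the file headers, the authors deposited for each of the 3 libraries a raw read count and an RPKM per gene, with gene type, position, strand and length. The submitters' processing notes name TopHat2 and the mm10 build. How reads were assigned to genes, with which annotation, and whether strand was used is not given in the sources used here, so overlapping or near-identical genes could share reads. CPM values rest on TMM factors of 0.978 (HFD+DfCS-Ib), 1.05 (HFD) and 0.976 (chow) from edgeR 4.0.16 in R 4.3.3, and list summaries used log2 of CPM plus 1 over genes averaging 1 CPM or more. Ratios of single genes used scaled counts with no pseudocount. Their code was tested on simulated data with known folds. Alternatives were no TMM factors, DESeq2 1.42.0 size factors, TMM without the 50 most abundant genes, the deposited RPKM, a pseudocount of 0.1, no filter, a 1.5-fold call and, chosen after seeing the data, the counting interval as the call. The members and lists were chosen with earlier results of these data known. Named beside the 10 members were, in each other list, up to 2 genes per comparison with the largest absolute log2 ratio at a mean of at least 20 CPM, the most abundant marker of each cell type, every hepatocyte marker and the 5 genes nearest to Hspa5. Positions of the 10 members matched RefSeq GRCm38.p6 under the same symbol, as did 121 of the other listed genes, with 5 more under an older symbol and 3 at another position, of which 2 were listed at 0 and Cps1 was not read. The promoter sequences are RefSeq's for GRCm38.p6, the assembly that mm10 names. A search for protein motifs that had been planned was not run.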

Additional observations from a re-analysis of the deposited data

How the results depend on the processing

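Scaling moved the members together. For HFD with chow, the members' median log2 ratio was 0.48 without TMM factors and 0.48 with the deposited RPKM, with 1 member (Pdia6) then at least 2-fold higher in each. For HFD+DfCS-Ib with HFD it was -0.30 in both. Of 48 gene ratios and list medians, 15 moved beyond a counting width under each of these 2 settings and 0 under the others. For a gene the width was that of its interval, and for a list it came from the medians of its genes' interval bounds. A list of genes with few counts therefore had a wide margin. Hsp90b1 between HFD and chow was the only member ratio to change sign. With 1.5-fold as the call, members higher numbered 3 (HFD with chow), 1 (HFD+DfCS-Ib with HFD) and 2 (HFD+DfCS-Ib with chow). Of 87 other listed genes tested, 10 were higher and 6 lower, 7 and 3, and 3 and 2 in the same comparisons. Of all genes tested, 10.4% were higher and 7.72% lower, 7.62% and 7.16%, and 5.69% and 3.06%. With the counting interval as the call, at TMM scaling only, members numbered 7 higher and 3 lower, 4 and 6, and 7 and 0. Of the 87 other listed genes tested, those called numbered 46 and 25, 22 and 34, and 36 and 12. Of all genes tested, 23.3% and 22.2%, 20.5% and 21.1%, and 16.0% and 14.1% were called. The interval call depends on the number of reads per gene. Other listed genes at least 2-fold higher in HFD+DfCS-Ib than in HFD, 3 by the rule used, numbered 1 without TMM factors, 0 with RPKM and 5 with a pseudocount of 0.1, which also gave 2 lower in HFD than in chow. The calls differ by construction. The deposited RPKM is scaled to total counts, as is CPM without TMM factors, so these settings are not independent alternatives. Why TMM scaling and scaling to total counts differ was not tested. No paired analysis was possible because each group has 1 library. Depth limits Sdf2l1, Dnajb9 and Creld2 most, the members with the fewest counts.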
